A study of Mus musculus with 32 samples.

Results

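The acute phase genes examined here were Saa1, Saa2, Saa3, Saa4, Orm1, Orm2, Hp and Lcn2, taken as every probe that the array's annotation assigns to one of these 8 symbols. They were read by 10 of the 25697 probes, 3 for Hp and 1 for each of the others. The livers came from female mice of the ApoE3Leiden strain, which bears a transgene for a human apolipoprotein E variant and becomes hyperlipidaemic on cholesterol-rich food. All mice, controls included, ate a high-cholesterol diet (HC), either alone or with the statin rosuvastatin (HC+RSV), with ezetimibe, a blocker of cholesterol uptake from the gut (HC+EZE), or with the combination (HC+RSV+EZE). Each group held 8 livers, 1 animal to an Illumina bead array, 32 arrays in all. Mice on a diet without added cholesterol are not analysed here, so HC is a control for the drugs and not for the diet. The sources used here do not give age, dose or time on the diet.

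The acute phase response is the change in the proteins that the liver releases into blood during infection, injury or inflammation. Cytokines such as interleukin-6 and interleukin-1, released by macrophages and other cells, reach hepatocytes and act through the transcription factors STAT3, NF-kB and C/EBP on genes of secreted proteins. In mice the serum amyloid A and alpha-1-acid glycoprotein genes are among the strongest responders, and haptoglobin and lipocalin 2 respond as well.

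None of the 7 acute phase genes that could be tested passed a test between the 4 diet groups, given the spread between livers. A single liver of the HC+EZE group, replicate 5, had the highest level of all 32 livers for 7 of the 8 genes, and without it the HC+EZE means of Saa1, Saa3 and Saa4 lay slightly below the HC means instead of above. For Saa1 the mean without it is background, since the probe was detected in no other HC+EZE liver. The HC means still held HC replicate 7, the highest HC liver for Saa1 and Saa3. A fit without both livers was not run. The levels of Saa3 and Orm2 moved together from liver to liver, as did those of Hp and Lcn2, while Lcn2 also differed between the chips on which the arrays lay.

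Levels are log2 intensities after background correction and quantile normalization, and a difference of 1 is a doubling on that scale. A probe counted as detected on an array where its detection p, the chance of such a signal from a negative control, was under 0.05. For testing, a probe had to be detected on at least 8 of the 32 arrays, which 7 of the 8 genes and 9 of the 10 probes passed, leaving 8853 genes in all. Saa2 fell short and is given by its values only. Mean intensity per array ranged from 126.1 to 279.9, and 10724 to 13444 probes were detected per array. All 12 hepatocyte marker genes were detected on all 32 arrays. The arrays lay on 6 chips, each with all 4 groups, and arrays with ezetimibe sat at other positions on a chip than those without, so position and ezetimibe cannot be told apart. The 4 arrays least like the rest were HC+RSV replicate 3, HC replicates 1 and 8 and HC+EZE replicate 1. HC+EZE replicate 5 was not one of them.

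In the RefSeq annotation of GRCm38.p6 the genes Saa3, Saa4, Saa1 and Saa2 lie next to one another in this order on chromosome 7, and Orm1 and Orm2 flank Orm3 on chromosome 4. Hp lies on chromosome 8 and Lcn2 on chromosome 2. Promoter sequences of RefSeq were at hand for 6 of the 8 genes, all but Orm1 and Hp. Those of Saa1 and Saa2 are shown because these close copies had the largest excess in a single liver, and those of Saa3 and Orm2 because their levels followed each other most closely. Each is the 250 bases before the transcription start on GRCm38.p6, read 5′ to 3′ on the gene's strand, with capitals for matches to the C/EBP pattern TTNNGNAA on either strand.
Saa1, chr7:46742981-46743230, minus strand: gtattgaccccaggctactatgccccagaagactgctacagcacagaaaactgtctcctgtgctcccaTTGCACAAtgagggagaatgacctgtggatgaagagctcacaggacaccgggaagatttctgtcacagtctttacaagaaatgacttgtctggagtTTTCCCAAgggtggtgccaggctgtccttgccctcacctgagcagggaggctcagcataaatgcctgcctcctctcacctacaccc
Saa2, chr7:46751583-46751832, plus strand: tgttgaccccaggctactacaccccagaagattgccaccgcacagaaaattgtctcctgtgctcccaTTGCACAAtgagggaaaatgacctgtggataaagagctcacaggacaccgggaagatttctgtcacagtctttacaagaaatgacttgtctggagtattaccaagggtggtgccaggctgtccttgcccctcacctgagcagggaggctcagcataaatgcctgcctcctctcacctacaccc
Saa3, chr7:46715677-46715926, minus strand: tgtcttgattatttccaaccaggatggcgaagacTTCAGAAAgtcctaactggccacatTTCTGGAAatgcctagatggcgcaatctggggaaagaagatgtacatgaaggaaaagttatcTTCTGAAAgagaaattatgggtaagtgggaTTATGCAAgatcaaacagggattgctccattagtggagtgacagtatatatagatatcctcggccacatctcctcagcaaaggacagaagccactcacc
Orm2, chr4:63362199-63362448, plus strand: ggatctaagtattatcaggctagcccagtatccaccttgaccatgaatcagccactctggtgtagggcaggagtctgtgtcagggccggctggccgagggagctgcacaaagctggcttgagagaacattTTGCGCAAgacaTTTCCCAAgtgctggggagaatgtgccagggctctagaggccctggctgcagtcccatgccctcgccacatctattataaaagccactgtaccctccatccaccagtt
The windows of Saa1 and Saa2 were identical at 238 of 249 aligned bases, or 95.6%. The first capital run of Saa1 and the single one of Saa2 are the same 8 bases. The Saa3 window held 4 matches to the C/EBP pattern and that of Orm2 held matches at 2 places, one of them a palindrome that matches on both strands. The same pattern also occurred in the windows of Saa4 and Lcn2, and in 36.8% of all 32851 promoter windows of this length. The NF-kB pattern of GGGA and, after any 4 bases, CC, the pattern CTGGGA for the interleukin-6 response element and TTCNNNGAA for STAT factors, searched on both strands, were not among the letters of these 6 windows and occurred in 17.6%, 27.0% and 7.0% of all windows. These matches describe letters and not binding.

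Saa1 and Saa2 encode the serum amyloid A proteins that circulate on high-density lipoprotein during an acute phase response. The Saa1 probe was at or near background in most livers, and was detected on 2 HC, 4 HC+RSV, 1 HC+EZE and 5 HC+RSV+EZE arrays of 8 each. In HC its level ran from 4.25 over a median of 4.46 to 5.75 in replicate 7. In HC+RSV the lowest, median and highest levels were 4.23, 4.54 and 5.14, and in HC+RSV+EZE they were 4.16, 4.76 and 5.49. HC+EZE had the lowest median, 4.36, and also the highest single value, 9.02 in replicate 5, against 4.63 for the next liver of that group. The groups overlapped throughout, apart from that 1 liver.

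For Saa2 the probe was detected on 3 of the 32 arrays, and these were HC replicate 7, HC+RSV replicate 5 and HC+EZE replicate 5. Its group medians lay at 4.29 (HC), 4.32 (HC+RSV), 4.33 (HC+EZE) and 4.28 (HC+RSV+EZE), none of which is a measured level above background. HC+EZE replicate 5 reached 8.67, against 4.82 for the next of the 32 livers. In intensity before normalization the Saa1 probe read 566.3 in that liver and at most 47.9 in any other, and the Saa2 probe 440.9 and at most 13.2. Arrays on which each probe was not detected were set to the lowest signal detected there or their own where higher. Against the mean log2 level so set, this liver was at least 19.9-fold higher for Saa1 (20 arrays) and at least 15.7-fold higher for Saa2 (29 arrays). These bounds hold for the mean and not for each array. Whether each of the 2 probes reads its own transcript or also its near-identical neighbour's was not tested.

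Saa3 encodes a serum amyloid A made by macrophages and fat cells as well as by liver in mice. It was detected on all 32 arrays. Lowest, median and highest levels were 5.05, 6.09 and 8.29 in HC and 5.10, 6.30 and 7.82 in HC+RSV. They were 5.34, 6.47 and 8.87 in HC+EZE and 5.62, 6.79 and 8.08 in HC+RSV+EZE. Every group held 1 or more livers at least 1 log2 unit above its own median, HC replicate 7 and HC+EZE replicate 5 being the highest of their groups, and the ranges overlapped almost fully.

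Saa4 encodes the constitutive serum amyloid A, which in general is less inducible than its neighbours. Its lowest, median and highest levels were 8.30, 9.57 and 10.27 in HC, 8.56, 9.24 and 10.19 in HC+RSV and 8.31, 8.96 and 9.84 in HC+RSV+EZE. In HC+EZE they were 8.68, 9.18 and 11.25. HC had the highest median, and HC+EZE replicate 5 the highest single value, 0.98 above the next liver of the 32.

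Orm1 and Orm2 encode alpha-1-acid glycoproteins, plasma carriers of basic drugs and lipids. Orm1 ran from 12.16 over 13.00 to 13.47 in HC, from 12.53 over 13.17 to 13.52 in HC+RSV and from 12.95 over 13.37 to 13.52 in HC+RSV+EZE. In HC+EZE its lowest, median and highest levels were 12.87, 13.22 and 14.67, and 6 of 8 livers were above the HC median. The spread in HC came from below, with 3 HC livers (replicates 1, 4 and 8) under every HC+EZE liver. Of these, replicates 1 and 8 were among the 4 arrays least like the rest.

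Of the 7 genes tested Orm2 had the largest difference from HC in HC+EZE, with overlapping ranges. Its lowest, median and highest levels were 8.89, 9.84 and 11.57 in HC, 8.84, 9.90 and 11.27 in HC+RSV and 9.41, 9.98 and 11.18 in HC+RSV+EZE. In HC+EZE they were 10.06, 10.17 and 12.63. All 8 HC+EZE livers lay above the HC median and 1 lay above the highest HC liver. As with Saa1 and Saa2, these genes are close relatives, and cross-reading between their probes was not tested.

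Hp encodes haptoglobin, which binds free haemoglobin in plasma. By its brightest probe the lowest, median and highest levels were 13.97, 14.23 and 14.42 in HC, 13.17, 14.40 and 14.57 in HC+RSV, 14.25, 14.39 and 14.61 with ezetimibe and 13.60, 14.36 and 14.72 with both drugs. By this probe all 8 HC+EZE livers exceeded the HC median, 4 of them the highest HC liver. HC+RSV and HC+RSV+EZE each had 2 livers below the lowest HC liver by it. By each of the other 2 probes only 5 HC+EZE livers exceeded the HC median, and 2 and 1 exceeded the highest HC liver. By those probes 2 and 1 HC+RSV livers and 0 HC+RSV+EZE livers lay below the lowest HC liver. The other 2 Hp probes differed from HC in HC+EZE by 0.17 ± 0.19 and 0.20 ± 0.23 (SE), beside 0.16 ± 0.16 for the brightest. Over the 32 livers with group means removed, the 3 probes correlated with each other at r = 0.74, 0.68 and 0.87.

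Lcn2 encodes lipocalin 2, which withholds iron from bacteria by binding their siderophores and is made by hepatocytes, neutrophils and macrophages. Of the 7 genes tested it had the widest spread, with a residual SD of 1.42. Lowest, median and highest levels were 9.91, 11.22 and 12.83 in HC and 10.13, 11.69 and 13.44 in HC+EZE. In HC+RSV they were 7.52, 11.68 and 12.24, and in HC+RSV+EZE 8.12, 11.80 and 12.94. Both groups on rosuvastatin held 2 livers far below the rest, at 7.52 and 8.73 in HC+RSV and at 8.12 and 9.07 in HC+RSV+EZE, while their medians were above that of HC. Of these 4 livers, 3 lay on chip 1. The lowest livers of HC (replicate 5, 9.91) and HC+EZE (replicate 3, 10.13) lay on chip 1 as well. That chip held 2 HC+RSV+EZE livers and 1 of each other group. The parts of chip and rosuvastatin in these low values were not tested. In whole liver, fewer cells of a type and less RNA per cell cannot be told apart.

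**Figure D1:**
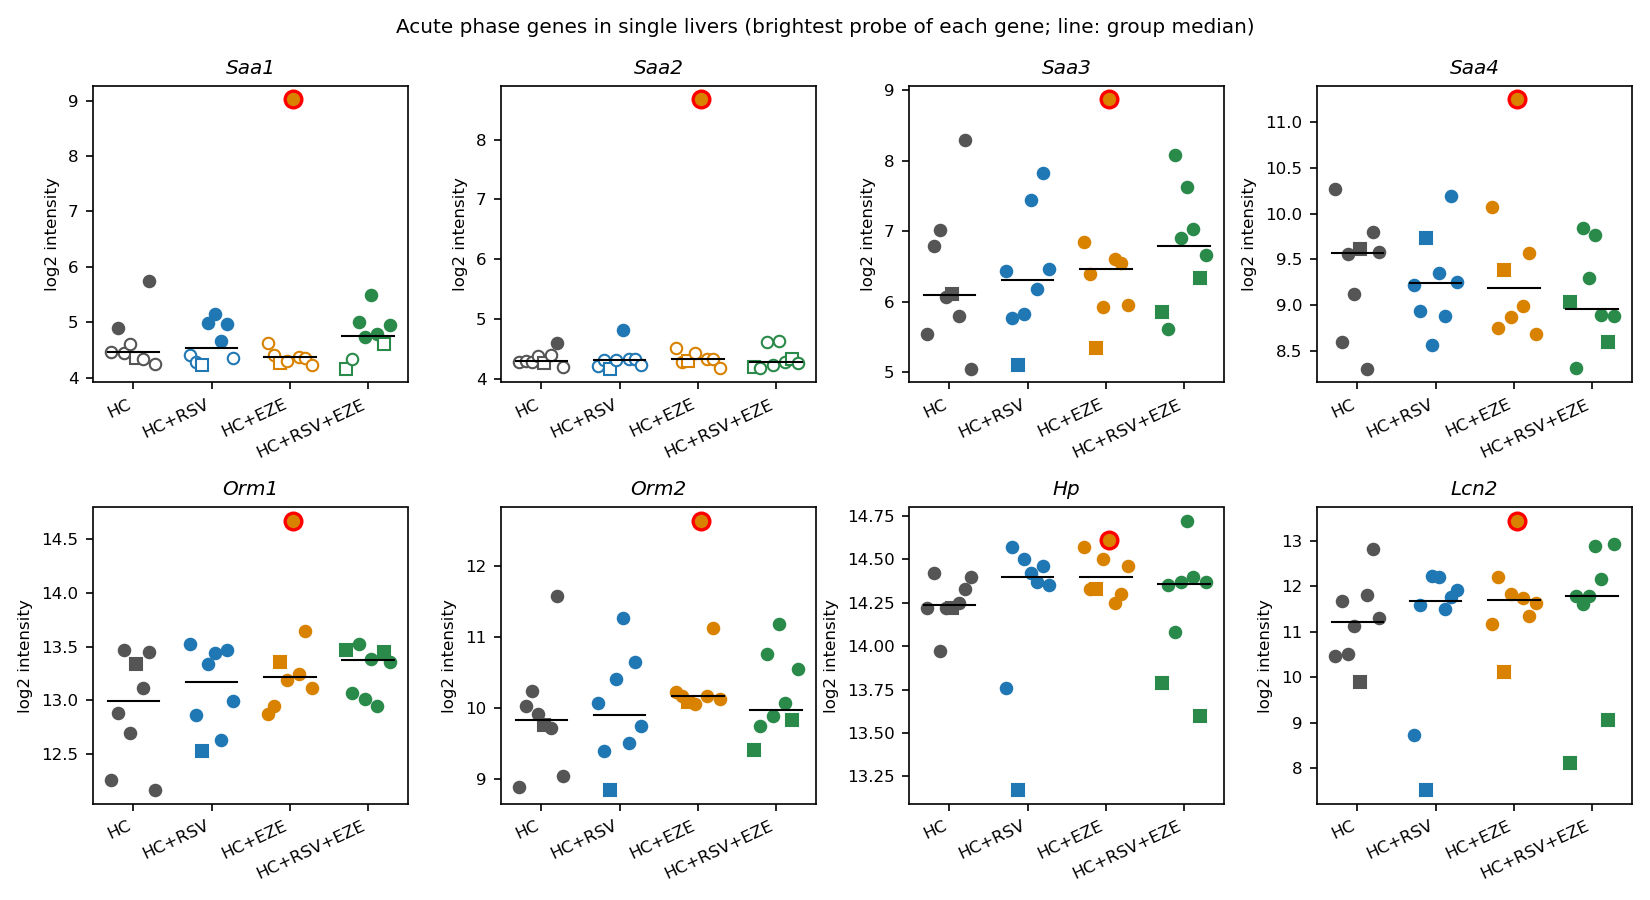
Log2 intensity of the brightest probe of each of the 8 genes (y axis, own scale per panel) in every liver of the 4 diet groups (x axis, 8 points each), with a line at each group's median. Squares are arrays on chip 1, open symbols are arrays on which the probe was not detected, and the red ring marks HC+EZE replicate 5, which is the highest of 32 in 7 panels. The low squares for Lcn2 and Hp are livers on chip 1.

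The differences between groups were tested with limma over all 8853 genes and adjusted by the Benjamini-Hochberg method over all of them. Over the 4 groups, 0 of 7 genes passed the F test at an adjusted p under 0.05, each with an adjusted p of 0.999, where 0.215% of all genes tested passed. Against HC, 0 of 7 passed in HC+RSV, where 0% of all genes passed. In HC+EZE 0 of 7 passed, where 0.0452% of all genes did, and the counts were the same in HC+RSV+EZE, 0 of 7 and 0.0452%. At an unadjusted p under 0.05 the counts were 0, 1 and 0 of 7, against 2.65%, 3.64% and 7.43% of all genes.

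In HC+RSV the differences from HC were within 0.30 of 0 for all 7 genes. They ran from -0.27 ± 0.65 (SE, limma) for Lcn2 to 0.18 ± 0.21 for Orm1, with 3 of 7 above 0, a median of -0.01 and a median of 0 over all genes. The 95% interval of the difference was -0.86 to 0.84 for Saa1, -0.84 to 0.94 for Saa3 and -1.59 to 1.04 for Lcn2. For Hp it was narrower, -0.37 to 0.27. Without the 4 arrays least like the rest Lcn2 was at 0.11, Hp at 0.11 and Saa3 at -0.12, and without the 5 arrays of chip 1 Lcn2 was at 0.03.

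In HC+EZE all 7 differences lay above 0, with a median of 0.31 against 0 over all genes. They were 0.68 ± 0.36 for Orm2, 0.48 ± 0.65 for Lcn2, 0.46 ± 0.21 for Orm1, 0.31 ± 0.42 for Saa1, 0.23 ± 0.44 for Saa3, 0.16 ± 0.16 for Hp and 0.09 ± 0.31 for Saa4, each with an adjusted p of 0.999 in limma's test. The gene below 0.05 before adjustment was Orm1, with a 95% interval of 0.02 to 0.89. Without the 4 arrays least like the rest, which include HC replicates 1 and 8, 0 of 7 genes were below 0.05 before adjustment. The share of all genes in that fit was not computed. With only HC+EZE replicate 5 left out, the fit gave -0.27 ± 0.19 for Saa1, -0.10 ± 0.40 for Saa3 and -0.16 ± 0.27 for Saa4. The other 4 stayed above 0 at lower values, 0.27 ± 0.19 for Orm1, 0.38 ± 0.32 for Orm2, 0.14 ± 0.17 for Hp and 0.23 ± 0.66 for Lcn2, with adjusted p-values of 1 and 0 of 7 at an unadjusted p under 0.05. The HC+EZE mean of Saa1 went from 4.95 ± 1.65 (SD, n = 8) to 4.36 ± 0.13 (n = 7) without that liver, and its mean for Orm2 from 10.57 ± 0.90 to 10.28 ± 0.38. Saa1 was not detected in those 7 livers, so its mean and its difference of -0.27 rest on background there. HC replicate 7, the highest HC liver for Saa1 (5.75) and Saa3 (8.29), stayed in this fit. A fit without both livers was not run, so these 2 changes of direction rest on leaving out a high liver on 1 side only.

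**Figure D2:**
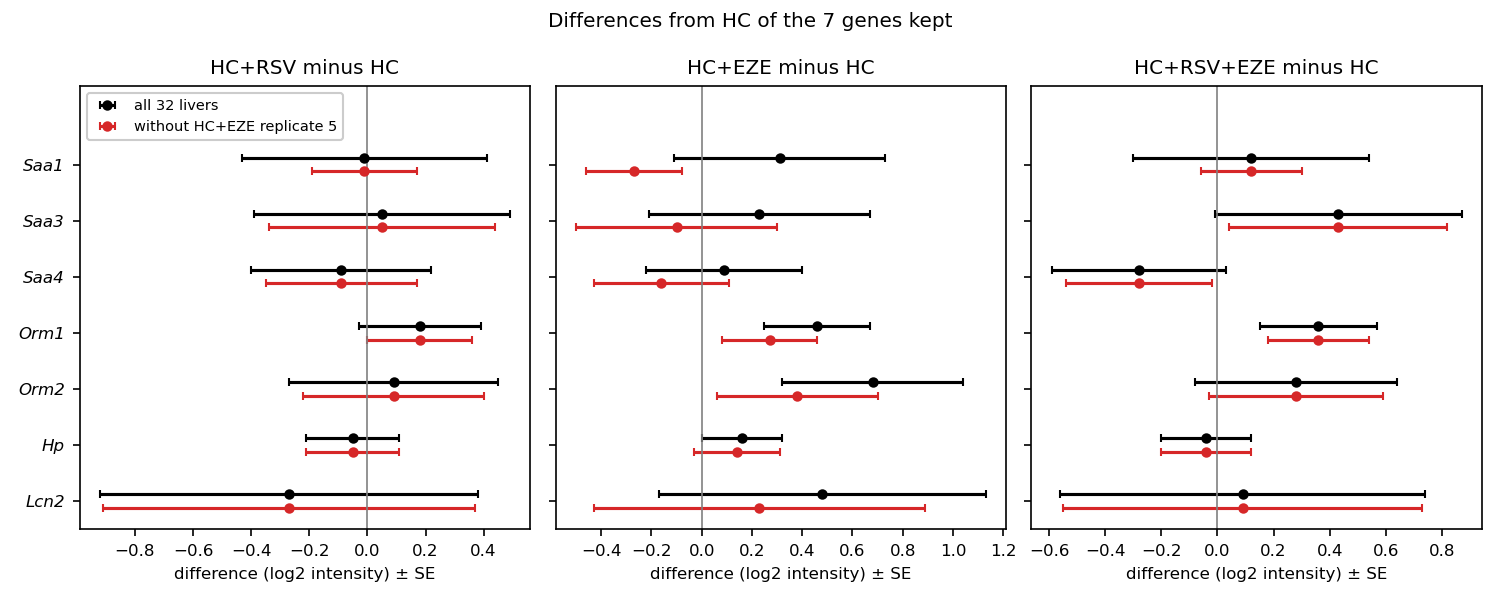
Difference from HC in log2 intensity (x axis, own scale per panel) for the 7 genes tested (y axis) in each drug group, as limma estimates with bars of 1 standard error. Black points use all 32 livers and red points leave out HC+EZE replicate 5. In the middle panel the red points of Saa1, Saa3 and Saa4 lie left of 0, at -0.27, -0.10 and -0.16. That of Saa1 rests on background, as no other HC+EZE liver had the probe detected. Red points keep HC replicate 7, the highest HC liver for Saa1 and Saa3.

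With both drugs 5 of 7 genes lay above HC and 2 below, with a median of 0.12 against -0.01 over all genes. The largest difference was 0.43 ± 0.44 for Saa3 (adjusted p = 0.817), followed by 0.36 ± 0.21 for Orm1 (adjusted p = 0.686) and 0.28 ± 0.36 for Orm2. Saa4 was at -0.28 ± 0.31. The interaction of the drugs, the departure of the combined effect from the sum of the single effects, passed for 0 of 7 genes, where 0% of all genes passed, and 0 of 7 had an unadjusted p under 0.05, against 1.72% of all genes. It ran from -0.48 ± 0.51 for Orm2 to 0.16 ± 0.62 for Saa3. The 3 comparisons share the HC livers.

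The liver HC+EZE replicate 5 was singled out after its values were seen, so what follows describes it without a test. Among the 10 probes it ranked highest of 32 for 9, and second for the brightest Hp probe, at 14.61 against 14.72. Its level exceeded the median of the other 31 livers by 2.56 for Orm2 (5.89-fold), 2.48 for Saa3 (5.58-fold), 2.03 for Saa4 (4.09-fold), 1.80 for Lcn2 (3.49-fold) and 1.47 for Orm1 (2.78-fold). Over all genes tested it was the highest liver for 166, or 1.88%. Its array had a mean intensity of 215.7, 12131 detected probes and a mean correlation of 0.9699 with the others.

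HC+EZE replicate 5 was also high in some acute phase genes beyond the 8, and so, to a lesser degree, were the other livers of its chip. The mean level of 31 further positive acute phase genes was 10.41 in that liver and 10.01 to 10.05 in the other 4 livers of chip 4, and it was at most 9.95 in every liver of the other chips. The chip mean was 10.10 on chip 4 and 9.71 to 9.78 on the other 5, and the part of the chip in the values of this liver was not tested. Of these 31 genes measured, of 36 listed, HC+EZE replicate 5 was the highest of 32 livers for 11, with a median excess of 0.49 over the other livers, against -0.01 for all genes. The metal-binding metallothioneins Mt1 and Mt2 reached 14.83 and 7.25 there, against at most 13.58 and 5.74 elsewhere. The fibrinogen-like hepatokine Fgl1 reached 12.10 against at most 11.06, and Apcs, which encodes serum amyloid P, 10.15 against at most 9.59. Crp, Fga, Serpina3n, Hamp, Mbl1, Ifitm3 and Cxcl1 completed the 11, each by at most 0.22 over the next liver. Lbp, the lipopolysaccharide-binding protein, was second of 32 at 9.80, and Cd14, its partner receptor, lay below the median of the others.

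**Figure D3:**
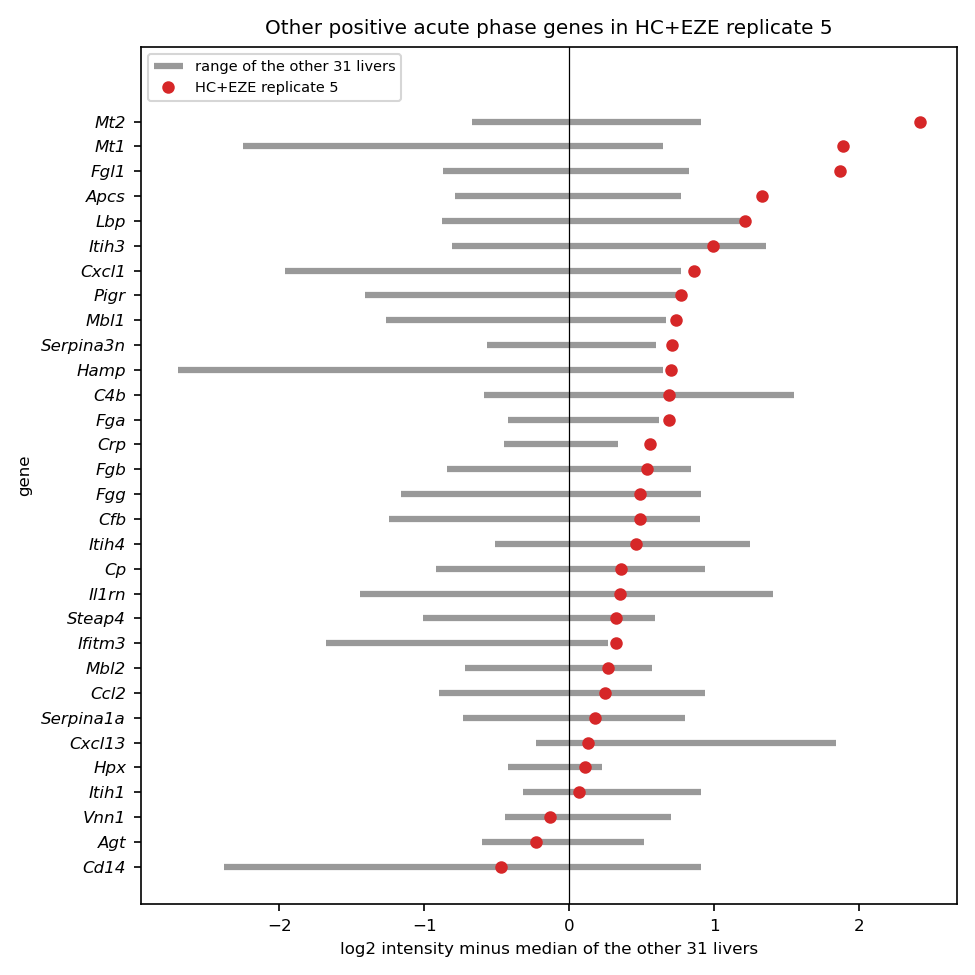
Log2 intensity of 31 other positive acute phase genes (y axis) in HC+EZE replicate 5 (red points) minus the median of the other 31 livers, on the x axis, with grey bars for the range of those livers. Points right of the bar mark the 11 genes for which this liver was the highest, and Mt2, Mt1, Fgl1 and Apcs lie clear of the bar.

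Genes that fall in an acute phase response had a smaller median displacement in that liver, -0.08 against -0.01 for all genes. The share of all genes for which it was the lowest was not computed, so the count of lowest genes is not read as a trait of the list. Of 14 negative acute phase genes measured, of 15 listed, it was the lowest of 32 for 2, transferrin (Trf, 14.35 against 14.53 or more elsewhere) and Apoa2 (14.08 against 14.37 or more), with a median difference of -0.08 from the other livers. Apoa1 ranked 31 of 32 from the top at 14.17. Albumin (Alb) was at 10.17, the third lowest of 32 values, within the range of the others. The highest level elsewhere was 14.87 for each of Trf, Apoa1, Apoa2 and Ahsg, near the top of the scale. Whether this narrowed their differences was not tested. Of the 32 measured genes of cytokine signalling to the liver, of 44 listed, HC+EZE replicate 5 was the highest for 0, against 1.88% of all genes. It was among the top 3 for Bcl3, Cebpb and Nfkbiz, and the share of all genes with it in the top 3 was not computed.

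Cells that could bring in acute phase transcripts were read from marker lists. In HC+EZE replicate 5 none of 7 neutrophil markers, 9 macrophage and monocyte markers or 12 hepatocyte markers was at its highest of the 32 livers. Over all genes tested this liver was the highest for 1.88%. Prtn3, the gene of a neutrophil granule protease outside these lists, was at 9.01 there and at most 5.67 elsewhere. That was the widest gap over all genes tested, and its source was not tested. The mean level of the neutrophil list was 5.70 there and ran from 5.29 to 5.88 over the HC livers, 4.93 to 6.03 over those of HC+RSV, 5.18 to 6.04 with ezetimibe alone and 5.44 to 5.90 with both drugs. The macrophage list stood at 8.95 there, and ran from 8.37 to 9.85 over the HC livers, 7.91 to 9.07 over those of HC+RSV, 8.52 to 9.12 with ezetimibe alone and 8.21 to 9.12 with both drugs. Of the markers that define neutrophil granules, Mpo was detected on 2 arrays, Ngp on 3, Ltf on 12, Elane on 20 and Mmp9 on 27. The median excess of this liver over the others was 0.38 for macrophage, 0.15 for neutrophil and 0.06 for hepatocyte markers, against -0.01 for all genes. The part of these cells in the levels of this liver was not tested.

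Other livers stood out less. HC replicate 7 was the highest of its group for 5 of the 8 genes and above the group median for all 8, and HC+RSV+EZE replicate 5 was the highest of its group for 4. HC+RSV replicates 5 and 7 were above their group's median for all 8 genes. At the other end HC+RSV replicate 3, on chip 1 and the array least like the rest, was the lowest of its group for 7 of 8 genes. HC replicate 8 was the lowest for 4. In all, 3 of the 32 livers were the highest of their group for at least 4 of the 8 genes, and 1 came from each of HC, HC+EZE and HC+RSV+EZE.

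Several of the genes moved together from liver to liver. Correlations were computed for the 21 pairs of the 7 genes over 32 livers with group means removed, and each carries a two-sided permutation p adjusted over the 21 pairs, where 1e-05 is the smallest unadjusted p the permutations can give. Pearson's r was above 0 for 21 of 21 pairs, and 11 pairs passed 0.05 by both r and rho. The share among pairs of all genes was not computed, so these counts are not read as a trait of the acute phase genes. The permutations do not take the chip into account, and livers on 1 chip are not fully independent, so r with chip means removed as well is given beside the pairs named. With chip means removed r was above 0 for 20 of 21 pairs. That of Saa3 and Saa4, 1 of the 11, went from 0.56 to 0.14, and that of Saa4 and Orm1 was -0.01.

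Saa3 and Orm2 gave r = 0.88 and rho = 0.84 (p = 1e-05 for both, adjusted p = 4.2e-05 and 5.25e-05). For each pair r was also taken without the 2 livers farthest from the median of the first gene named. Without these, HC replicate 7 and HC+EZE replicate 5 for Saa3, r was 0.80, and with chip means removed it was 0.84. Orm1 and Orm2 gave r = 0.80 and rho = 0.75 with the same p-values, 0.71 without the 2 farthest livers, HC replicate 8 and HC+EZE replicate 5, and 0.83 with chip means removed. Saa1 and Orm2 gave r = 0.78 and rho = 0.74, 0.72 without HC replicate 7 and HC+EZE replicate 5 and 0.71 with chip means removed, with the limit that Saa1 was not detected on 20 of the 32 arrays. The relation of Saa1 with Saa4 rested on HC+EZE replicate 5, since r = 0.61 became 0.29 without it, as did that of Saa1 with Orm1, from 0.65 to 0.35. With all 32 livers and chip means removed these were 0.51 and 0.65.

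After Saa3 and Orm2, Hp and Lcn2 were the most closely related pair. They gave r = 0.86 and rho = 0.79 (permutation p = 1e-05 for both, adjusted p = 4.2e-05 and 5.25e-05), and r = 0.77 with chip means removed. Without the 2 livers farthest in Hp, HC+RSV replicate 3 and HC+RSV+EZE replicate 7, r was 0.79. Other livers low in Lcn2, such as HC+RSV+EZE replicate 1 at 8.12, stayed in. By the other 2 Hp probes r with Lcn2 was lower, 0.65 and 0.59. The lowest values were those of Saa4 with Hp (r = 0.03) and with Lcn2 (r = 0.04), and of Orm1 with Hp (r = 0.03). With chip means removed they were 0.25, 0.26 and 0.16.

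**Figure D4:**
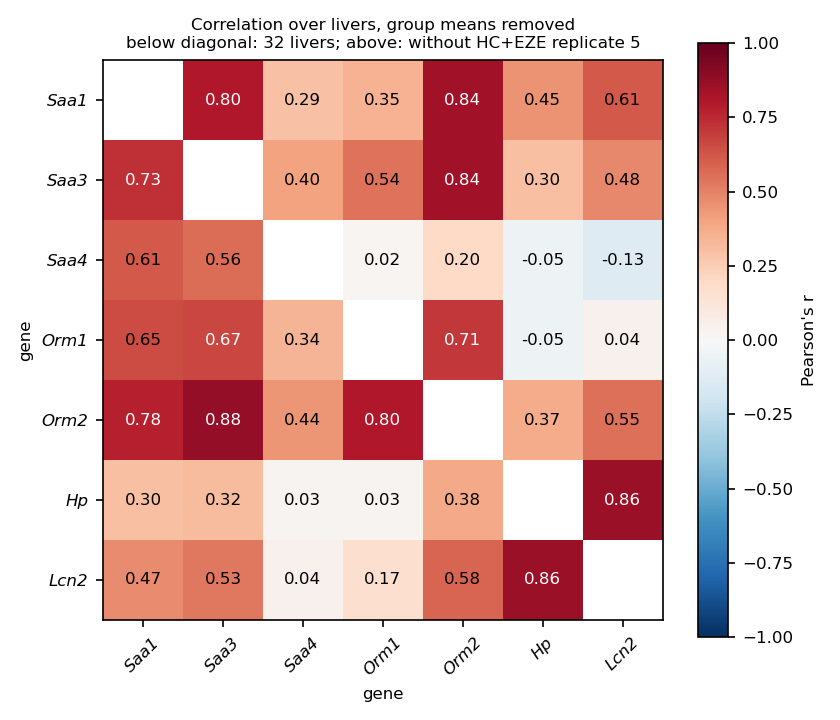
Pearson's r between the levels of the 7 genes tested (both axes) over livers, with group means removed. Values below the diagonal use all 32 livers and those above leave out HC+EZE replicate 5, and colour gives r from -1 to 1. The strongest squares are Saa3 with Orm2 (0.88 and 0.84) and Hp with Lcn2 (0.86 and 0.86), while Saa1 with Saa4 falls from 0.61 to 0.29.

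For each gene the 3 genes with the most similar pattern over the 32 livers were taken by Pearson's r with group means removed, and these are descriptions without a p. For Lcn2 they were Timp1, an inhibitor of matrix metalloproteases, Trem2, a receptor of macrophages, and Ms4a6d, each at r = 0.90, and 0.79, 0.76 and 0.76 with chip means removed. For Saa3 and Orm2 each was the other's nearest, followed in both by Nudt1 at 0.79 and 0.85, and at 0.73 and 0.77 with chip means removed. Saa1 was most like Prtn3 (0.86), Mt2 (0.82) and Lrg1 (0.80), with 0.84, 0.83 and 0.72 after removal of chip means. Without HC+EZE replicate 5 these became 0.29, 0.57 and 0.77, so the likeness to Prtn3, the gene of proteinase 3, rested on that liver. Orm1 was most like Asgr2, Rpain and Ino80b, each at 0.87, and at 0.86 to 0.89 with chip means removed. Saa4 was most like Qsox1 (0.76), Apon (0.75) and Cyp2c37 (0.73), but these fell to 0.65, 0.41 and 0.50 with chip means removed. Hp was closest to Lcn2, then to Sat1 (0.81) and Atp6v1e1 (0.80), which were at 0.65 and 0.67 with chip means removed.

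Part of the spread ran with the chip on which an array lay. Chip took up 66.2% of the spread of Lcn2 within groups, 63.5% for Saa4 and 57.6% for Saa3, against a median of 30.4% over all genes, and 32.8% for Orm1. Lcn2 had a mean of 8.95 ± 1.13 (SD, n = 5) on chip 1, and its mean on each of the other chips lay between 11.07 and 12.12. Saa3 was highest on chip 4, at 7.65 ± 1.28 (n = 5), the chip of HC replicate 7 and HC+EZE replicate 5, and lowest on chip 1, at 5.75 ± 0.52. Orm2 followed the same order at its ends, 11.02 on chip 4 and 9.58 on chip 1. The macrophage list also had its lowest mean on chip 1, 8.34, and its highest on chip 4, 9.11, and its part in the levels of Lcn2 and Saa3 was not tested. The arrays of chip 1 had mean intensities of 126.1 to 156.6.

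**Figure D5:**
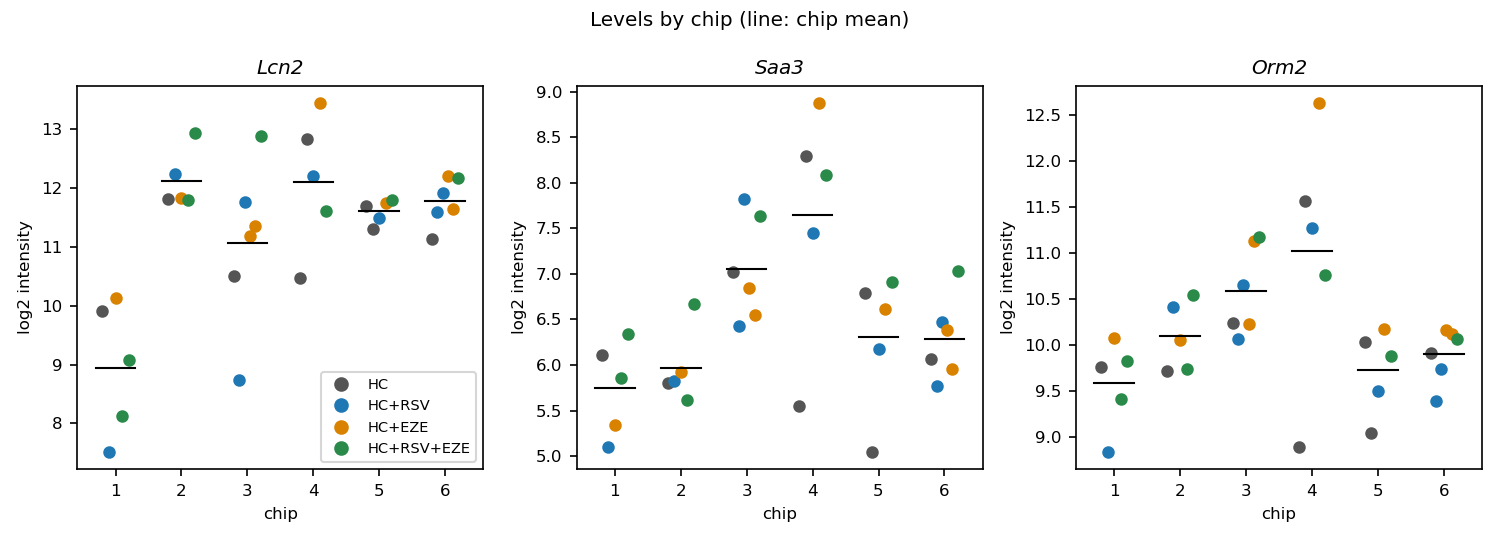
Log2 intensity of Lcn2, Saa3 and Orm2 (y axis, own scale per panel) in the 5 or 6 livers on each of the 6 chips (x axis), coloured by diet group, with a line at the chip mean. Lcn2 on chip 1 lies between 7.52 and 10.13, and chip 4 holds the highest means of Saa3 and Orm2.

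With chip as a block the spread fell and the differences were estimated more closely, but again 0 of 7 genes passed in any comparison, where 0%, 0.0452% and 0.113% of all genes passed for rosuvastatin, ezetimibe and both drugs. At an unadjusted p under 0.05 the counts were 0, 2 and 1 of 7, against 4.34%, 4.52% and 9.93% of all genes, and 0 of 7 in the interaction, against 3.93%. In HC+EZE Orm2 differed from HC by 0.73 ± 0.29 (limma adjusted p = 0.92) and Orm1 by 0.47 ± 0.19 (limma adjusted p = 0.935). Lcn2 differed by 0.60 ± 0.42. Without HC+EZE replicate 5 this fit gave 0.48 ± 0.28 for Orm2 and 0.26 ± 0.18 for Orm1, with 0 of 7 genes in HC+EZE at an unadjusted p under 0.05. Within chips, HC+EZE exceeded HC for Orm2 on 6 of 6 chips, by 0.23 to 2.40, and for Lcn2 on 6 of 6, by 0.01 to 1.78. Orm1 and Hp did so on 5 of 6 each, Saa3 on 4, Saa4 on 3 and Saa1 on 2. Each group had 1 or 2 livers on a chip, so a chip compares single livers or means of 2. The largest values, 2.40 and 1.78, were those of chip 4, where HC+EZE replicate 5 lay. The share of all genes above HC on 6 of 6 chips was not computed. With both drugs Saa3 differed by 0.75 ± 0.32 (limma adjusted p = 0.419) with chip as a block, against 0.43 without, and lay above HC on 5 of 6 chips.

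The rest of the pathway gave no calls either, in limma's test over all genes, where 0%, 0.0452% and 0.0452% of all genes passed for rosuvastatin, ezetimibe and both drugs. The shares of all genes with an unadjusted p under 0.05 were 2.65%, 3.64% and 7.43%, and 1.72% in the interaction, where the counts were 0 of 31 other positive and 0 of 14 negative acute phase genes and 1 of 32 genes of cytokine signalling. Among the other positive acute phase genes 0 of 31 passed in each of the 3 drug groups and in the interaction, and 0, 0 and 2 had an unadjusted p under 0.05 for rosuvastatin, ezetimibe and both drugs. In each drug group 14 of 31 were above HC, and the median differences were -0.02, -0.02 and -0.06. Among the negative acute phase genes 0 of 14 passed, with 0, 1 and 3 under 0.05 before adjustment and medians of 0, 0.01 and 0.05. The largest of them in HC+EZE was Serpina6, the gene of corticosteroid-binding globulin, at 0.51 ± 0.18 (limma adjusted p = 0.89). Among the genes of cytokine signalling 0 of 32 passed, with 2, 2 and 3 under 0.05 before adjustment and medians of -0.02, -0.08 and -0.10. There Tyk2, a Janus kinase, differed by 0.48 ± 0.15 in HC+RSV and Il1a, the gene of interleukin-1 alpha, by -0.47 ± 0.20, both with a limma adjusted p of 0.999.

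Cell type markers gave no calls between groups, against the same shares of all genes, 0%, 0.0452% and 0.0452% past the threshold and 2.65%, 3.64% and 7.43% under 0.05 before adjustment. Of the macrophage markers 0 of 9 passed, with 1, 0 and 2 under 0.05 before adjustment. Their median was -0.28 in HC+RSV, where 0 of 9 lay above 0, and -0.03 and -0.10 with ezetimibe and both drugs. Of the neutrophil markers 0 of 7 passed, 0 were under 0.05 before adjustment in any comparison, and the medians were 0.08, 0.08 and 0.17. Hepatocyte markers, 0 of 12 past the threshold and 0, 0 and 1 under 0.05 before adjustment, had medians of -0.02, -0.01 and 0.02. Stellate, endothelial and bile duct markers, 0 of 9 past it and 0 under 0.05 before adjustment in each drug group, had medians of 0.02, 0 and 0.11, and 1 of 9 was under 0.05 in the interaction. Of the red blood cell markers 0 of 4 passed, with medians of 0.13, 0.20 and 0.29 and 0, 0 and 2 under 0.05 before adjustment. For adipocyte markers 0 of 2 passed, with 0, 0 and 1 under 0.05 before adjustment and medians of 0.03, -0.06 and 0.07.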

How the data were processed

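Each Illumina mouse bead array read the liver RNA of 1 animal, so the spread behind a p-value is that of animals plus arrays. The authors deposited a probe intensity not normalized between arrays; some values are below 0, so a background had been subtracted in a way the sources do not describe. A detection value, deposited as a fraction, gave the detection p as 1 minus the value. The authors' log2 values for 15505 of 25697 probes, deposited as a second table, came from limma according to the submitters' processing notes. Their column medians lay at 4.95 to 4.96, and their filter is not described.

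Here the intensities were corrected by limma's normal-exponential model (detection p, offset 16), quantile normalized and log2 transformed (limma 3.58.1 in R 4.3.3). Probes detected on at least 8 of 32 arrays were kept (12844), and the brightest probe of each named gene was used (8853 genes). Symbols follow the platform annotation, with 14548 of 14557 named probes updated by Entrez ID. One lmFit and eBayes model held the 4 groups and all arrays (28 residual degrees of freedom), adjusted by Benjamini-Hochberg over all genes at a threshold of 0.05. Precision is limited by the number of arrays, with a median standard error of 0.16 for a difference. The code was tested on simulated data.

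All 8 genes were named, and for each tested gene the 3 with the highest r over livers. From each other list came genes past the threshold, otherwise up to 4 with the largest difference and those that define the list; genes named in single livers were chosen after their values were seen. The members and all lists were chosen with earlier results of these data known. Alternatives covered background correction, normalization, the authors' values, filter, probe choice, chip, position, replicate number, weights, variance trend and arrays left out. Those without HC+EZE replicate 5 or without chip 1 were chosen after seeing the data.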

Additional observations from a re-analysis of the deposited data

Results flagged for a closer look

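Of 40 groups of 8 livers, 1 for each of the 10 probes in each diet group, 8 held a liver so far from the others that its gap exceeded Dixon's limit, where chance gives about 1 in 20 for normally distributed values. The share over all probes was not computed, so the count is not read as a trait of these genes. Of the 8 values, 5 were those of HC+EZE replicate 5, the highest of its group at 9.02 for Saa1, 8.67 for Saa2, 8.87 for Saa3, 14.67 for Orm1 and 12.63 for Orm2. They come from 1 array and are not independent of each other. As that liver was singled out after its values were seen, they are no test of it. The other 3 were the Saa1 level of HC replicate 7, high at 5.75, the Saa2 level of HC+RSV replicate 5, high at 4.82 and detected with a detection p of 0.0113, and the level of the brightest Hp probe in HC replicate 3, low at 13.97. No other HC+RSV array detected the Saa2 probe, so that gap is measured against background. HC+EZE replicate 5, HC replicate 7 and HC+RSV replicate 5 lay on chip 4.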

How the results depend on the processing

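Of 28 differences (7 genes, 3 drug groups and the interaction), 500 values were computed under alternatives, of which 443 kept their direction, 57 turned and 0 passed the threshold (smallest adjusted p 0.246). The count of genes past the threshold stayed at 0 in every comparison under every alternative run. Only the stricter filter dropped a gene, Saa1. With the replicate number as a block 0 genes passed, and Saa1 differed by 0.31 in HC+EZE. Between groups 2 to 7 of 8 same-numbered livers correlated above 0.1, so the numbers were not taken as pairs; same-numbered HC+RSV and HC+EZE livers (7 of 8 above 0.1) shared a chip in 8 of 8. Below, turned values are given in the order of their settings, and the cause was not tested except where stated. With no background correction Saa1 differed by 0.13 (HC+RSV), -0.22 (HC+EZE) and 0.91 (interaction), and with the authors' values by 0.11, -0.21 and 0.90. Scaling to equal medians, which moved the median of all genes by -0.114 with ezetimibe and -0.177 with both drugs, gave Saa4 -0.05 in the first and Lcn2 -0.12 in the second. Cyclic loess gave Hp 0.05 in HC+RSV and 0.04 in HC+RSV+EZE. Chip as a fixed block gave Saa1 0.17 in HC+RSV and Hp 0.02 in HC+RSV+EZE, and as a random block Saa1 0.08 in HC+RSV. Array weights gave, in HC+RSV, Saa3 -0.03, Saa4 0.06, Hp 0.11 and Lcn2 0.14, and Hp 0.03 in HC+RSV+EZE. Array position nearly coincides with ezetimibe and runs in part with rosuvastatin, so it cannot be separated from them. As a covariate it gave in HC+RSV Saa3 -1.18, Orm1 -0.02 and Orm2 -0.81. With it HC+EZE gave Saa1 -3.08, Saa3 -4.92, Saa4 -2.01, Orm1 -0.34, Orm2 -3.08, Hp -0.78 and Lcn2 -6.64, and HC+RSV+EZE gave Saa1 -4.08, Saa3 -5.94, Orm1 -0.64, Orm2 -4.37 and Lcn2 -8.73. In this fit 2, 3 and 4 of 7 genes had an unadjusted limma p under 0.05 in HC+RSV, HC+EZE and HC+RSV+EZE. The share of all genes in that fit was not computed. Without the 4 arrays least like the rest, HC+RSV gave Saa3 -0.12, Saa4 0.03, Orm2 -0.06, Hp 0.11 and Lcn2 0.11, HC+EZE gave Saa3 -0.16, and HC+RSV+EZE gave Orm2 -0.03 and Lcn2 -0.02. Without HC+EZE replicate 5, HC+EZE gave Saa1 -0.27, Saa3 -0.10 and Saa4 -0.16, and the interaction Saa1 0.40, Saa3 0.49 and Lcn2 0.13, of which that of Saa3 kept its direction. Without chip 1, HC+RSV gave Saa1 0.01, Hp 0.09 and Lcn2 0.03, HC+RSV+EZE gave Hp 0.13 and the interaction Lcn2 0.26. Chip as a block without HC+EZE replicate 5 gave Saa1 0.04 (HC+RSV), -0.16 (HC+EZE) and 0.34 (interaction), Saa4 -0.06 in HC+EZE, Hp 0.01 in HC+RSV+EZE and Lcn2 0.20 in the interaction. Leaving out each of the 32 arrays in turn let 0 genes pass. Ranges over these fits that crossed 0 were, in HC+RSV, -0.08 to 0.15 for Saa1, -0.16 to 0.33 for Saa3, -0.24 to 0.04 for Saa4, -0.10 to 0.33 for Orm2, -0.10 to 0.10 for Hp and -0.46 to 0.21 for Lcn2. In HC+EZE they were -0.27 to 0.47 for Saa1, -0.10 to 0.51 for Saa3 and -0.16 to 0.23 for Saa4, in HC+RSV+EZE -0.11 to 0.05 for Hp and -0.15 to 0.54 for Lcn2, and in the interaction -0.34 to 0.40 for Saa1, -0.12 to 0.49 for Saa3 and -0.61 to 0.33 for Lcn2. Probes near background limit Saa1 and Saa2.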

Other observations

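Outside the lists, HC+EZE replicate 5 was also far above every other liver for a few genes, which were chosen after their values were seen. Over all 8853 genes tested, ranked by the gap between this liver and the next of the 32, the widest gap was that of Prtn3, the gene of the neutrophil granule protease proteinase 3, at 9.01 against at most 5.67 elsewhere. Saa1 came next. Ang, the gene of the secreted ribonuclease angiogenin, reached 13.64 against at most 12.83, and Lrg1, the gene of a secreted leucine-rich glycoprotein, 13.24 against at most 12.58. Among the neutrophil markers in the same liver, Elane, another granule protease, stood at 5.09 and ranked 6 of 32, S100a8 at 8.65 ranked 9, and Ltf at 4.29 ranked 32. The source of the Prtn3 signal was not tested.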
